A study of Mus musculus with 13 samples.

Results

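The regions described here carried BLIMP1 in fetal intestinal epithelium and in plasmablasts and had no listed BLIMP1 summit in retinal photoreceptor precursors. A summit is the single position that a peak caller lists for a ChIP-seq peak. The summits of 12 ChIP libraries on chromosomes 1 to 19 were joined wherever neighbouring summits lay at most 200 bp apart, which gave 152528 regions. Of these, 777 regions were selected on their summits, by having one in both intestinal and both plasmablast libraries and none in either photoreceptor library. They made up 16.0% of the 4870 regions with a summit in both intestinal libraries and 3.41% of the 22753 regions with a summit in both plasmablast libraries. Of the 2628 regions bound in both tissues they made up 29.6%, while 1498 had a summit in both photoreceptor libraries and 353 had one in a single photoreceptor library. The selection rests on these 6 somatic libraries, in regions merged over all 12. The presence or absence of somatic summits in the regions is therefore a description and was not tested.

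All libraries came from C57BL/6 mouse cells in which both copies of the gene for BLIMP1 carried EGFP at the N terminus, and chromatin was precipitated with an antibody to GFP. Untagged cells were not among the libraries. Intestinal epithelium was taken at E16.5 from the small intestine and sorted for GFP and EPCAM (2 replicates). Plasmablasts were B cells grown for 3 days with IL-4 and LPS and sorted for GFP and CD138 (2 replicates). Photoreceptor precursors were GFP-positive cells of the retina at postnatal day 4 (2 replicates). The germ-lineage libraries were primordial germ cell-like cells (PGCLC), made in culture from embryonic stem cell lines and taken at day 2 (sorted for KIT) or day 6 (sorted for SSEA1 and integrin beta-3), with 2 replicates each, and SSEA1-positive germ cells of E12.5 gonads, with 1 male and 1 female library from embryos obtained by sperm injection. An input library of male gonadal germ cells was not analysed here. Whether replicates were separate animals or cultures is not in the labels, so spreads and p-values describe these libraries. No expression was measured, so the cell type labels could not be set against marker genes.

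BLIMP1 is the product of Prdm1, a zinc-finger protein of the PRDM family that mostly represses transcription by recruiting corepressors and histone-modifying enzymes. It binds sequences built around a GAAAG core, which resemble the sites used by interferon regulatory factors. It drives B cells to become antibody-secreting cells, holds the fetal intestinal epithelium in its immature state, restrains bipolar fate in the developing retina and specifies primordial germ cells.

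The sequences below are stretches of 80 bases upstream of the gene start that held the centre of a selected region. Summits of a region can lie outside its stretch, as some do for Uhrf1, Cldn7 and Cxcl10, so a region may be shown only in part. They are shown because the named genes recur in the results. The sequences were taken from RefSeq promoters of GRCm38.p6 (the coordinates of mm10) and written 5′ to 3′ on the gene's strand. The first set comes from regions with germ-lineage summits, in 1 library for Cxcl10, 3 for Cldn7 and Uhrf1 and all 6 for the others. Of 10 named genes with the centre of such a region in their promoter stretch, 4 held a match to the BLIMP1 core there. Of the 6 without a match, 3 follow them. Capitals mark matches, on either strand, to GNGAAAG or GAAAGTG, the letters of the BLIMP1 core.
Oas3, chr5:120777685-120777764, minus strand: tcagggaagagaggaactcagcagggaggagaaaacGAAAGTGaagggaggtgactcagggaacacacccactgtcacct
Cox7a1, chr7:30184040-30184119, plus strand: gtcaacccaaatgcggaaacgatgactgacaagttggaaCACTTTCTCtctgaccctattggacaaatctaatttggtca
Ssh3, chr19:4269341-4269420, minus strand: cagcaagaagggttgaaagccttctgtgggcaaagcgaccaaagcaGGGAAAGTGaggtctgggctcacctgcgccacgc
Cldn7, chr11:69964636-69964715, plus strand: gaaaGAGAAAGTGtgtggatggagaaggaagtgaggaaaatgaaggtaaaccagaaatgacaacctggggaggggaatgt
Tmem140, chr6:34863005-34863084, plus strand: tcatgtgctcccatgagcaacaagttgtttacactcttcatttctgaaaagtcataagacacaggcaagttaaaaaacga
Uhrf1, chr17:56303134-56303213, plus strand: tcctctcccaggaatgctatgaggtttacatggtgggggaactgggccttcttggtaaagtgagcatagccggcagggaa
Cxcl10, chr5:92348982-92349061, minus strand: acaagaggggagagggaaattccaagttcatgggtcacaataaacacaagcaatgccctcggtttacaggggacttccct

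The second set comes from regions without any germ-lineage summit. None of these stretches, 4 of the 5 such genes named, holds the BLIMP1 core letters, although 5 of 20 whole promoter windows of this kind held GNGAAAG. Capitals in Dvl2 and Zmym6 mark CACGTG, the palindromic E box core. CACGTG and GAAAGTG were searched after these promoters had been read.
Dvl2, chr11:70000460-70000539, plus strand: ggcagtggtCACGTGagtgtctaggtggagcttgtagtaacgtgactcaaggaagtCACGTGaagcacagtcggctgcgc
Zmym6, chr4:127077279-127077358, plus strand: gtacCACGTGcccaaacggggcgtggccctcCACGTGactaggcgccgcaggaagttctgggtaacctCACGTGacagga
Spry1, chr3:37639798-37639877, plus strand: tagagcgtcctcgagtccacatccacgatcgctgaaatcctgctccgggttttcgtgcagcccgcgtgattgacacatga
H2-T23, chr17:36032743-36032822, minus strand: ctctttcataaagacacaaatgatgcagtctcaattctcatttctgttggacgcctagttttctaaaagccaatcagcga

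The libraries differed in the length of their summit lists, and the lists carry no read depth or height. ChIP started from 3.0 (day 2 and day 6 replicates 1) to 30 (day 2 replicate 2) times 1e5 cells. The intestinal libraries listed 7866 and 11946 summits on these chromosomes, the photoreceptor libraries 10674 and 13740, and the plasmablast libraries 39944 and 44141. Germ-lineage lists ran from 12115 summits (male E12.5) to 26198 (day 2 replicate 2), apart from day 6 replicate 1, which stood apart with 75237 against 15248 in its partner. The absence of a listed summit is therefore not the absence of binding. The shorter intestinal list set the number of regions most, since requiring only replicate 2 of the intestine gave 1853 regions in place of 777.

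In 716 of the 777 regions each of the 4 libraries listed exactly 1 summit. The closest intestinal and plasmablast summits lay a median of 19 bp apart (quartiles 8 and 42 bp), and 13 bp in regions bound in all 3 somatic tissues. The merging limit of 200 bp sets a bound on such distances. Within the selected regions the median was 59 bp between the intestinal replicates and 51 bp between the plasmablast replicates. The closest pair between tissues is taken over more pairs of summits than the closest pair between replicates, so these medians are not on an equal footing. The regions were a median of 200 bp wide, against 183 bp for regions of all 3 tissues, and 384 were wider than 200 bp because several summits chained together. They lay on every autosome, from 20 regions on chromosome 19 to 62 on chromosome 5.

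Germ-lineage cells shared most of these regions. A summit of at least 1 germ-lineage library lay in 658 of the 777 regions (84.7%, Clopper-Pearson 95% interval 82.0% to 87.1%). The selection required no germ-lineage summit, but these summits took part in the merging. They could join somatic summits more than 200 bp apart into 1 region, as near Tnfaip8l3. There plasmablast summits at chr9 positions 54069114 and 54069381 were linked across germ-lineage summits at 54069239 and 54069323. The share is thus partly set by the merging, and the number of regions joined this way was not counted. All 6 germ-lineage libraries had one in 226 regions (29.1%, 25.9% to 32.4%), and none had one in 119 (15.3%). Between these ends, 113 regions had 1 germ-lineage library, 84 had 2, 59 had 3, 80 had 4 and 96 had 5. Where a germ-lineage summit was present, the nearest lay a median of 7 bp from an intestinal or plasmablast summit. The long list of day 6 replicate 1 was the only germ-lineage list present in 105 regions, and without it 553 regions (71.2%) kept a germ-lineage summit.

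By library, summits lay in 49.8% and 61.6% of the 777 regions for day 2 PGCLC, in 80.7% and 49.3% for day 6 PGCLC, and in 43.0% and 52.0% for male and female E12.5 germ cells. Both day 2 libraries had a summit in 366 regions, both day 6 libraries in 367, and both E12.5 libraries in 297. At least 1 library had a summit in 500 regions (64.4%) for day 2, 643 (82.8%) for day 6 and 441 (56.8%) for E12.5. Day 6 replicate 1 was the highest of the 6 libraries and male E12.5 the lowest, in the order of the lengths of their lists.

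The mean over the 6 germ-lineage libraries was 56.1% ± 13.5 (SD, n = 6) of the selected regions. Regions bound in intestine, plasmablasts and photoreceptors alike reached 88.2% ± 4.92 (SD, n = 6), and the selected regions were 32.1 percentage points lower on average (difference -32.1, from -39.7 to -14.8, lower in 6 of 6 libraries). The exact sign-flip permutation test, two-sided, gave p = 0.031, and p = 0.031 after Benjamini-Hochberg adjustment over 3 comparisons, the smallest value that 6 libraries allow. The 1601 regions bound in the intestine with no plasmablast or photoreceptor summit reached 20.7% ± 8.72 (SD, n = 6). Against these the selected regions were 35.3 points higher (30.6 to 43.4, higher in 6 of 6; exact permutation p = 0.031, adjusted 0.031). The 16271 regions bound in plasmablasts with no intestinal or photoreceptor summit reached 9.68% ± 7.0 (SD, n = 6), 46.4 points below the selected regions (38.0 to 57.1, 6 of 6; exact permutation p = 0.031, adjusted 0.031). Regions bound in more somatic tissues thus had germ-lineage summits more often, in each of the 6 libraries. Libraries of the same germ-lineage cell type are not independent, and with 1 mean per cell type the smallest p is 0.25. Germ-lineage summits also took part in the merging that formed every class, so the tests are not independent of it. The selected regions were also wider than the intestinal and plasmablast comparison regions (median 200 bp against 81 and 76 bp). Counting only germ-lineage summits within 100 bp of the centre, an alternative added after seeing the data, the differences were 25.0 and 34.7 points (exact permutation p = 0.031 for both), and -29.7 against regions of all 3 tissues. How strong the binding was in each class is not in the lists, and its part in these differences was not tested.

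**Figure D1:**
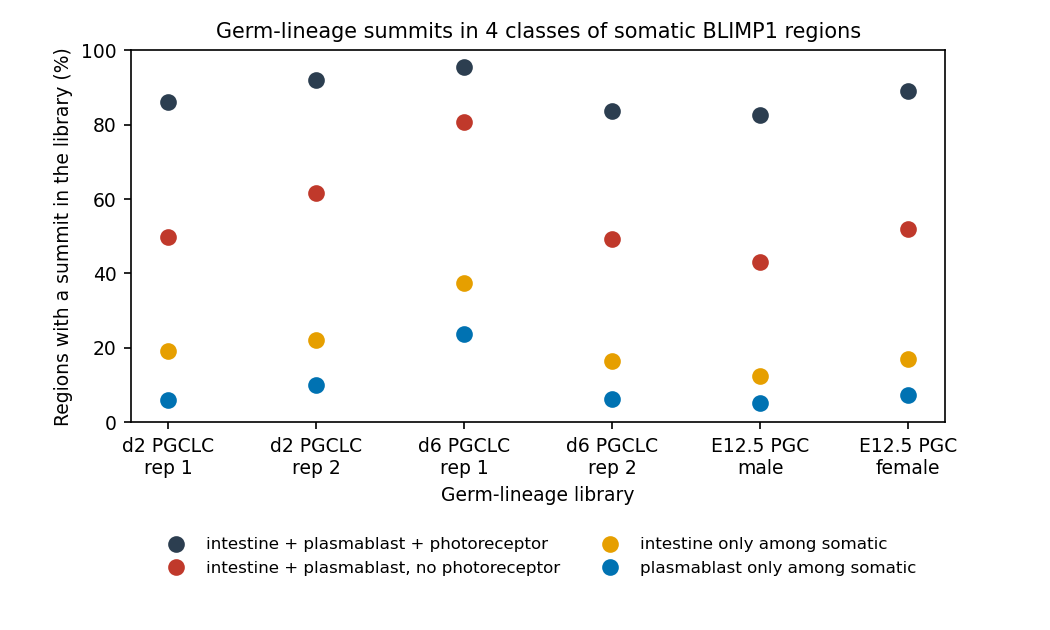
Percent of regions with a summit in each of the 6 germ-lineage libraries (horizontal axis), for 4 classes of regions defined on the somatic libraries. Regions were merged over all 12 libraries, the germ-lineage ones included. In every library the selected regions (red) sit between the regions bound in all 3 somatic tissues (dark) and those bound in intestine or plasmablasts alone (orange, blue), from 43.0% in male E12.5 germ cells to 80.7% in day 6 replicate 1.

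Regions without a plasmablast summit but bound in intestine and photoreceptors, 118 in all, had a germ-lineage summit in 91.5% (85.0% to 95.9%). The 615 bound in plasmablasts and photoreceptors with no intestinal summit had one in 76.3% (72.7% to 79.6%). The selected regions, at 84.7%, lay between these other sets bound in exactly a pair of somatic tissues. These shares are a description, with intervals that cover counting error only.

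Most selected regions lay away from gene ends. The centre of 223 regions (28.7%, 25.5% to 32.0%) was within 1 kb of an end of a protein-coding gene, while 16.4% of all merged regions were. A further 338 (43.5%) lay inside a gene more than 1 kb from its ends, and 216 (27.8%) lay outside genes. Regions bound in all 3 somatic tissues were near a gene end in 38.6%, intestinal regions with no plasmablast or photoreceptor summit in 10.3%, and the corresponding plasmablast regions in 25.9%. Where a strand was known, 170 of 181 selected regions near an end were at the 5′ end of the gene (93.9%, 89.4% to 96.9%), and 11 were at the 3′ end. The strand was not given for the other 42. The share at the 5′ end was 96.4% for regions of all 3 tissues and 85.7% for all merged regions. All merged regions had a median width of 0 bp, against 200 bp for the selected ones. Many of them thus held a single summit position and are not a matched baseline, here or below. Exons and introns were not annotated here.

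**Figure D2:**
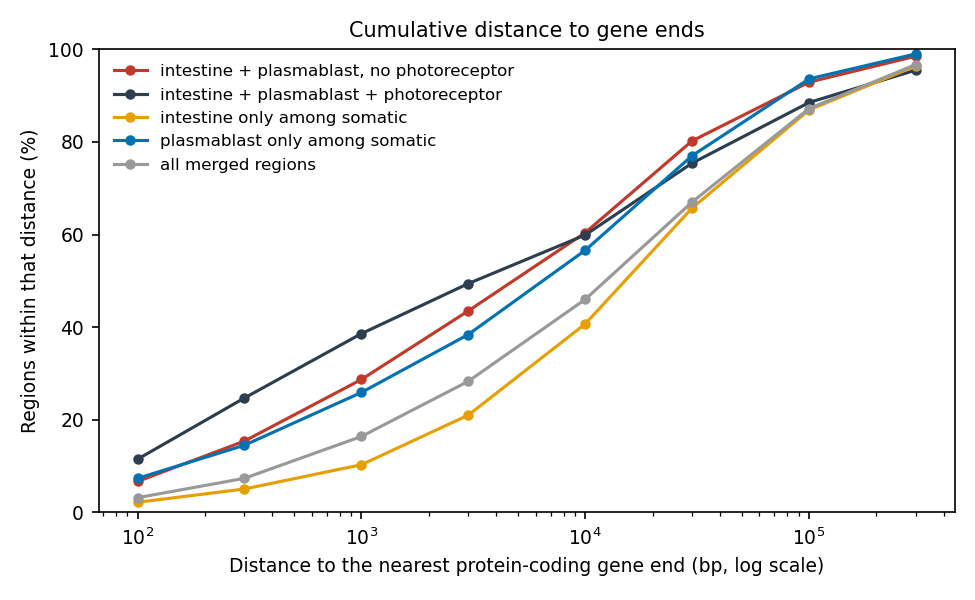
Cumulative percent of regions (vertical axis) within a given distance of the nearest protein-coding gene end (horizontal axis, bp, log scale). The selected regions (red) reach 28.7% at 1 kb, below the 38.6% of regions bound in all 3 somatic tissues (dark), and both reach about the same level by 10 kb (60.4% and 59.9%).

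The median distance to a gene end was 4598 bp for the selected regions, 3286 bp for those of all 3 tissues, 15438 bp for the intestinal and 6827 bp for the plasmablast comparison regions, and 12478 bp for all merged regions. Selected regions over 100 kb from a gene end numbered 55 (7.08%), against 12.8% of all merged regions and 11.5% of those of all 3 tissues. The share was 13.1% for the intestinal and 6.41% for the plasmablast comparison regions. At 30 kb the selected set had the highest share of the classes plotted, 80.2% against 75.4% for regions of all 3 tissues.

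Regions near gene ends and regions shared with the whole germ lineage were partly different sites. Of the 119 selected regions without a germ-lineage summit, 49 (41.2%, 32.2% to 50.6%) were within 1 kb of a gene end. The share was 31.9%, 42.9%, 37.3% and 31.2% with 1, 2, 3 and 4 germ-lineage libraries, 18.8% with 5, and 16.4% (37 of 226) with all 6, equal to the share of all merged regions. A like fall was present among the regions bound in all 3 tissues, so it was not limited to the selected set. There the share went from 73.3% of the 15 regions with no germ-lineage summit to 33.9% with all 6. Plasmablast comparison regions rose from 23.9% with none to 38.0% with 1 library and were at 10.2% with all 6. Intestinal comparison regions stayed low, at 9.36% with none, 13.1% with 1 and 6.9% with all 6. These are counts of regions within the same libraries, with no test.

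**Figure D3:**
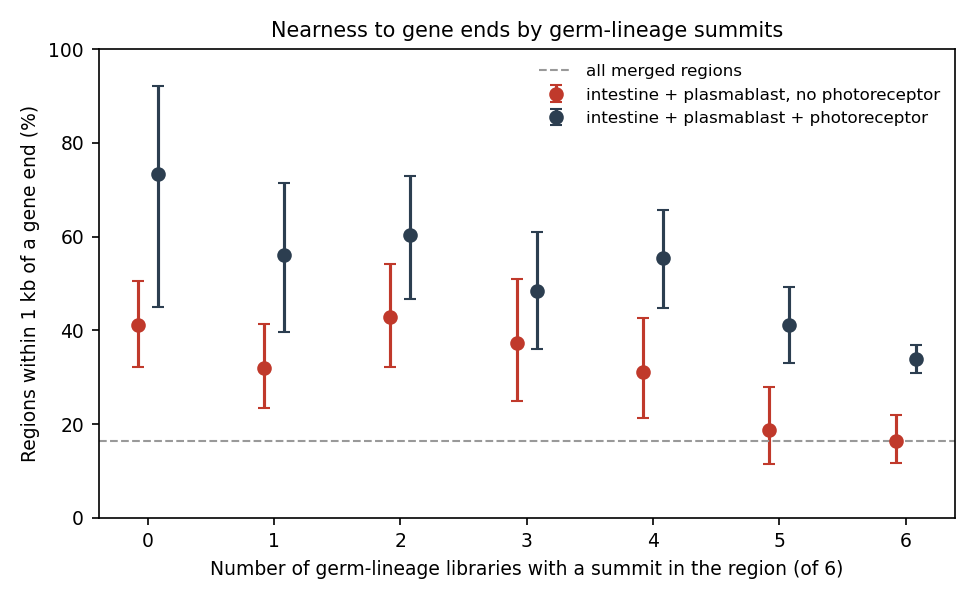
Percent of regions within 1 kb of a protein-coding gene end (vertical axis) by the number of germ-lineage libraries with a summit in the region, with Clopper-Pearson 95% intervals. Selected regions (red) go from 41.2% with no germ-lineage library to 16.4% with all 6; regions bound in all 3 somatic tissues (dark) lie higher at each number, and the dashed line is the 16.4% of all merged regions.

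The 223 regions near an end touched 262 of 20665 protein-coding genes, a share of 1.27%. This number rests on the intestinal lists: without intestinal replicate 1 it was 953 genes, with 43.8% of the regions near a gene end, and without replicate 2 it was 415 genes. Single genes were near 185 regions, pairs of genes near 37 and 3 genes near 1. Regions bound in all 3 somatic tissues touched 693 genes (3.35%), and 8 of the 262 genes (3.05%) had such a region too, a share close to that of all genes. Another region bound in both photoreceptor libraries lay within 1 kb of 17 of them (6.49%), against 1975 of all genes (9.56%). Any region with a photoreceptor summit lay within 1 kb of 41 (15.6%), against 3663 of all genes (17.7%). It lay within 5 kb of 60 of the 262 genes, and the remaining 202 had none within 5 kb. The share of all genes was not counted at 5 kb, so these 2 counts have no baseline. The selection removed photoreceptor summits from the regions themselves, so these counts are partly set by it.

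Of the 10 tightest regions near a gene end without a germ-lineage summit, 8 lay by a 5′ end. Spry1, a feedback inhibitor of receptor tyrosine kinase signalling, had intestinal summits at chr3 positions 37639811 and 37639831 and plasmablast summits at 37639822 and 37639866, 109 bp from its 5′ end. The plasmablast and intestinal positions interleaved within 55 bp, and the nearest photoreceptor summit lay 600 bp away. Dvl2, the Dishevelled protein that relays WNT signals, had intestinal summits at chr11 positions 70000470 and 70000515 and plasmablast summits at 70000530 and 70000482. This region was 92 bp from the 5′ end of Dvl2 and 489 bp from the 3′ end of Phf23. Its CACGTG letters, printed above, lie at or between these summits.

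H2-T23, which encodes the nonclassical MHC class I molecule Qa-1, had intestinal summits at chr17 positions 36032799 and 36032749 and plasmablast summits at 36032753 and 36032816, 81 bp from its 5′ end. Reads of MHC class I genes can be hard to place because the genes resemble each other. Zmym6, a zinc-finger gene, had its region 64 bp from the 5′ end, with 3 of the 4 summits between 127077280 and 127077289 and intestinal replicate 2 at 127077359. Nagk, the kinase that salvages N-acetylglucosamine, Ptp4a2, a protein tyrosine phosphatase, and Noxa1, an activator of NADPH oxidase, had theirs 86, 52 and 232 bp from the 5′ end. For Stard4, a carrier of cholesterol, the 4 summits spanned 19 bp, the tightest of these 10 regions, at 991 bp from an end whose strand was not given. Zfp426 (23 bp span, 843 bp from the 5′ end) and Synpo2l, an actin-associated gene (76 bp span, 471 bp from the 3′ end), completed the group.

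The tightest regions with summits in all 6 germ-lineage libraries included an interferon-induced gene. Oas3, an oligoadenylate synthetase of the antiviral response, had intestinal summits at chr5 positions 120777730 and 120777709 and plasmablast summits at 120777717 and 120777688, centred 18 bp from its 5′ end. Its germ-lineage summits were at 120777751 and 120777727 in day 2 PGCLC, at 120777648 and 120777756 in day 6 PGCLC, and at 120777719 (male) and 120777706 (female) in E12.5 germ cells. The somatic and germ-lineage positions overlapped, and the day 6 summits lay at both outer edges. The nearest photoreceptor summit was 34847 bp away.

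Cox7a1, a subunit of cytochrome c oxidase of muscle and brown fat, had intestinal summits at chr7 positions 30184085 and 30184071 and plasmablast summits at 30184039 and 30184100. Germ-lineage summits were at 30184089, 30184018, 30184140, 30184143, 30184095 and 30184078, so the somatic summits lay inside the germ-lineage range, and the nearest photoreceptor summit was 865 bp off. Ssh3, a slingshot phosphatase that activates cofilin, had intestinal and plasmablast summits between 4269333 and 4269382 on chr19 and germ-lineage summits between 4269312 and 4269448. In the stretches printed above, the capitals of both genes fall within these ranges. Syne3, a nesprin of the nuclear envelope, had all 10 summits between 105010652 and 105010698 on chr12, 88 bp from its 5′ end, and the nearest photoreceptor summit lay 595 bp away. Lyl1, a transcription factor of blood progenitors, Anxa7, an annexin, and Thoc3, of the THO complex in mRNA export, lay 412, 476 and 168 bp from their regions. Glt28d2, Pdcl3 and Tmem140 lay 259, 250 and 101 bp away.

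**Figure D4:**
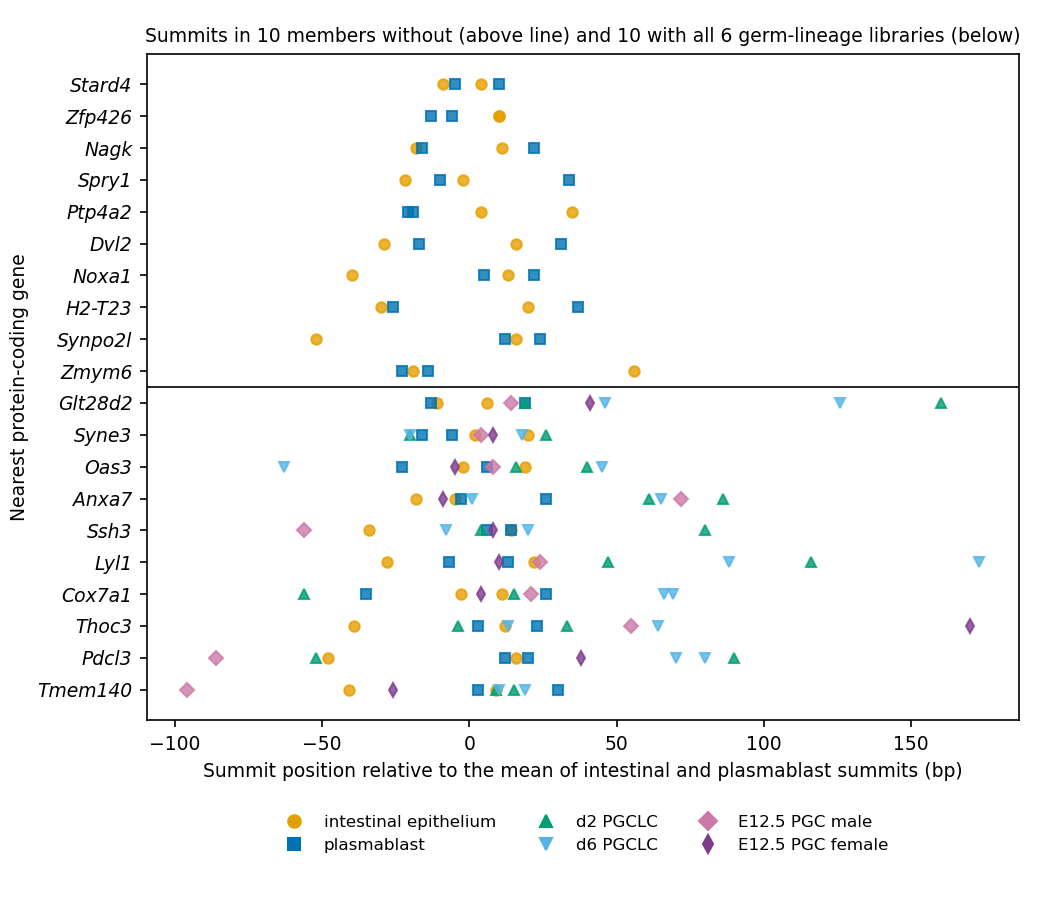
Summit positions in the 20 regions with the tightest intestinal and plasmablast summits, as distance in bp from the mean of those summits (horizontal axis), 1 row per nearest gene. The 10 rows above the line have no germ-lineage summit; in the 10 rows below it, germ-lineage symbols overlap the intestinal and plasmablast ones, and several reach over 100 bp to 1 side.

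The 30 gene lists held 1048 distinct genes, of which 29 (2.77%) had a selected region within 1 kb, beside 1.27% of all protein-coding genes. The lists favour well-studied genes and were chosen with results of these data known, so their share has no test. In 19 lists fewer genes had a selected region than had a region of all 3 tissues, and in 2 lists more had one. Of all protein-coding genes 3.35% had a region of all 3 tissues, against the 1.27% with a selected region. Lower counts of the selected set, here and in the lists below, are therefore not in themselves a departure. In 11 lists no gene had a selected region.

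Among immune genes, a selected region lay near 3 of the 20 antigen-processing and MHC class I genes (H2-D1, H2-Q4 and H2-T23), while 9 of 20 had a region of all 3 tissues. For the interferon response the counts were 3 of 50 (Oas3, Ifi35 and Cxcl10) and 5 of 50. Ifi35, an interferon-induced leucine-zipper protein, had summits in 5 germ-lineage libraries. Cxcl10, the chemokine that attracts CXCR3-bearing lymphocytes, had intestinal summits at chr5 positions 92349050 and 92349019 and plasmablast summits at 92349079 and 92349019, with 1 germ-lineage summit, in day 6 replicate 1 at 92348964. Its region was 132 bp from the 5′ end, and the identical position 92349019 was listed in both tissues. Irf3, which switches on interferon genes, was the only 1 of 12 interferon regulatory factors. Its region lay inside the neighbouring gene Bcl2l12, 226 bp from the 5′ end of Bcl2l12 and 236 bp from that of Irf3. Stat6, the mediator of IL-4 signals, was the 1 of 24 genes of the JAK-STAT list, at 712 bp from its 3′ end and 781 bp from the 3′ end of Nab2. None of 34 genes of NF-kB and innate receptor signalling had a selected region.

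Among epithelial genes, 3 of 44 genes of junctions and polarity had a selected region and 2 had a region of all 3 tissues. Cldn7, a claudin of epithelial tight junctions, had intestinal summits at chr11 positions 69964648 and 69964702 and plasmablast summits at 69964796 and 69964597. Both intestinal summits lay between the plasmablast summits, and germ-lineage summits were at 69964557, 69964657 and 69964619. Cldn23, another claudin, was 443 bp from its region and Esrp1, which directs epithelial splicing, 558 bp. None of 48 genes of enterocyte function had a selected region.

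At the 1.27% of all genes, a list of this size would hold less than 1 gene with a selected region, so a count of 0 or 1 is no departure. Within 1 kb, no gene had a selected region among 45 of B cell identity, 48 of the plasma cell and unfolded protein response, or 36 retinal and photoreceptor transcription factors. For the plasma cell list, 5 genes had a region of all 3 tissues. In the germ cell and pluripotency list, Uhrf1, which guides maintenance DNA methylation, was the 1 of 35, with intestinal summits at 56303166 and 56303102, plasmablast summits at 56303197 and 56303223 on chr17, and germ-lineage summits in 3 libraries. No gene of that list had a region of all 3 tissues. Of 17 PRDM family genes, Prdm1 included, none had a selected region within 1 kb of an end. Suz12, a core subunit of the PRC2 repressor complex, was the 1 of 42 BLIMP1 partners and histone modifiers, 217 bp from its 5′ end, with the nearest photoreceptor summit 580 bp away.

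The other lists had at most 2 genes each. Chek1 and Chek2, the checkpoint kinases, were the 2 of 30 in the p53 and DNA damage list, and Chek1 had summits in all 6 germ-lineage libraries. Mcm7, of the replicative helicase, was 1 of 44 cell cycle genes, at a region 50 bp from its start and 140 bp from that of Ap4m1. Spry1 and Mafk, a small MAF protein, were 2 of 37 in the list of immediate early genes and MAPK feedback, and Dvl2 and Apc, the WNT scaffold protein, 2 of 45 in the WNT list. Pdk1, which inhibits pyruvate dehydrogenase, and Bnip3, a mitophagy receptor, were 2 of 29 in glycolysis and hypoxia. Single genes were Ddit4 (amino acid stress, an inhibitor of mTORC1), Mlxip (MYC and MAX network), Smurf2 (TGF-beta and BMP, a ubiquitin ligase), Bhlhe40 (circadian clock), Cox6c (oxidative phosphorylation) and Psmd12 (proteasome). Apoptosis, Notch, lysosome and autophagy, and sterol and lipid metabolism had none, nor did 66 cytosolic ribosomal protein genes, of which 8 had a region of all 3 tissues.

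Widening the search to regions inside a gene or within 5 kb of it gave 740 genes. No baseline from other regions was set beside this count. Of the 740 genes, 31 had 2 selected regions and no gene had more. These 31 are tied and not ranked. The first 10 by chromosome and position were Uggt1, Nck2, Gpatch2, Pdia3, Snx5, Mgme1, Esrp1, Actb, Ahcyl2 and Ccdc106. Uggt1 and Pdia3 act in glycoprotein folding in the endoplasmic reticulum, and Actb encodes beta-actin.

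Of the 55 selected regions over 100 kb from a gene end (7.08%, against 12.8% of all merged regions), 15 lay inside a long gene. The farthest, at chr1:114165372-114165521, was 1519291 bp from the nearest protein-coding gene end, of Cntnap5a, and had summits in all 6 germ-lineage libraries. The region at chr15:62728083-62728194 was 737777 bp from Myc, the nearest protein-coding gene, and had summits in 5. Other far regions had as nearest genes Cntnap5b (1411682 bp), Flrt2 (830658 bp), Adgra3 (624579 bp), Wwox (431061 bp), Gm32936 (408326 bp), Tmem114 (391626 bp) and Oxsm (329158 bp). All 6 germ-lineage libraries had a summit in those near Cntnap5b, Adgra3, Gm32936, Tmem114 and Oxsm, 5 in that near Wwox and 2 in that near Flrt2. The region near Wwox lay inside that very long gene, and the distance is to its nearer end.

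The distance to the nearest photoreceptor summit varied widely among the selected regions. The selection excludes distances up to 200 bp, and no baseline from other regions was set beside these values. From the edge of a selected region the nearest photoreceptor summit lay a median of 35240 bp away, with a lowest value of 205 bp and a highest of 1530712 bp. It was within 1 kb for 61 regions (7.85%), within 5 kb for 137 and within 50 kb for 449 (57.8%). The nearest were at the regions by Cntnap5b and Oxsm (205 bp each) and Map4k3 (207 bp). Regions just outside the selection had a photoreceptor summit joined across a gap of 197 bp (near Dipk1a), 187 bp (Neurod2), 180 bp (Dusp7), 173 bp (N4bp2) and 169 bp (Mdm4). The widest gaps between neighbouring summits inside selected regions were 200 bp near Gabarapl2, Guca1a and Egr1, and 199 bp near Adh5 and Serpinb1c.

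The BLIMP1 core letters were found in a minority of the selected promoters. The windows searched ran from 250 bases before to 50 after each RefSeq start, on both strands, and 90 windows of 86 genes held the centre of a selected region. GNGAAAG was in 42.2% of them (31.9% to 53.1%), in 22.3% of all 20085 windows and in 74.5% of the 278 windows holding a region of all 3 tissues. Windows with an intestinal comparison region had it in 47.8% of 46 and those with a plasmablast comparison region in 23.8% of 1628. Within the selected set the share was 25.0% of 20 windows without a germ-lineage summit (8.66% to 49.1%), 43.6% of 55 with 1 to 5 germ-lineage libraries and 60.0% of 15 with all 6 (32.3% to 83.7%). The last intervals overlap widely. GAAAGTG, which can overlap GNGAAAG, was in 18.9% of the 90 windows and 4.71% of all windows, and in 0 of 20, 10 of 55 and 7 of 15 by the same classes. It was searched after the promoters printed above had been read, and those are among these windows. Its counts are therefore a description and no independent support for a difference between the classes.

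Of the other letters searched, the GC box departed from its share in all windows, and not only in the selected set. AANNGAAA, the core of interferon regulatory factor sites, which can overlap the BLIMP1 core, was in 21.1% against 21.5% of all windows, and GGAAGT, an ETS site, in 27.8% against 25.0%. CACGTG, also searched after the printed promoters had been read, was in 10.0% (4.68% to 18.1%) against 7.89%. GGGCGG, the GC box, was in 63.3% against 47.0%. Windows with a region bound in intestine, plasmablasts and photoreceptors alike had it in 71.9%. The share was 67.3% with a plasmablast comparison region and 47.8% with an intestinal comparison region. The windows with a selected region had a median GC content of 61.8%, against 57.0% for all windows. In the other classes, in the same order, the median was 61.7%, 61.3% and 55.0%. The part of base composition in these shares was not tested. Chromosome 18 was not in the promoter table and was not searched. A match is a description of letters and not a measured site.

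**Figure D5:**
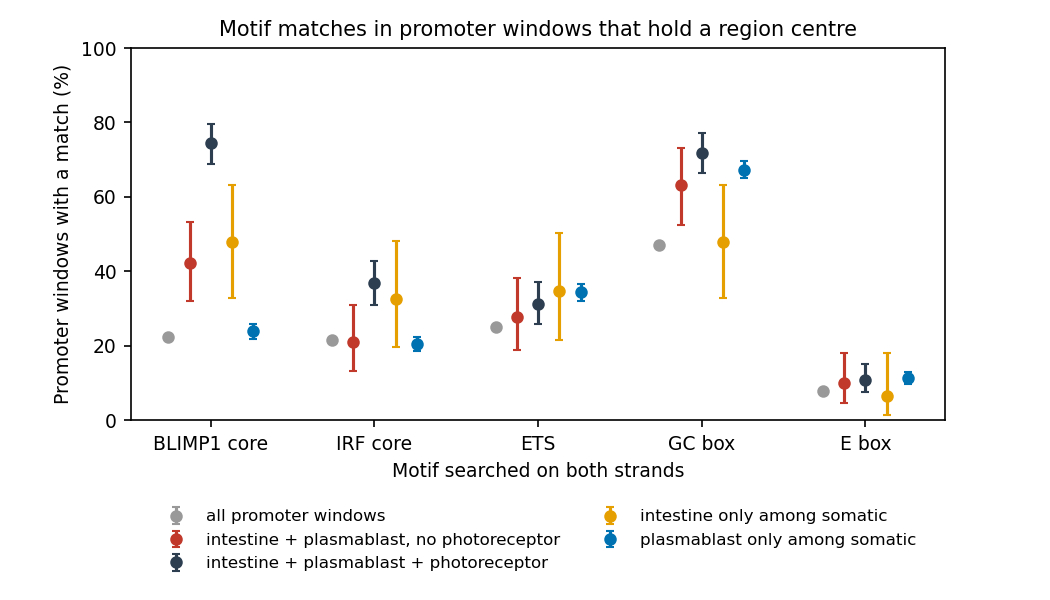
Percent of promoter windows with a match to 5 motifs (vertical axis), with Clopper-Pearson 95% intervals, for all windows (grey) and for windows that hold a region centre of each class. GNGAAAG (BLIMP1 core) is in 42.2% of windows with a selected region (red), between the 74.5% of regions bound in all 3 somatic tissues (dark) and the 22.3% of all windows.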

How the data were processed

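EGFP-BLIMP1 ChIP-seq summits of 12 libraries were used. The deposited lists give, per library, a chromosome and a summit position, with no count, score or p-value. Per the submitters' processing notes MACS2 2.1, Bowtie 1.1.2, cutadapt 1.7.1 and Trim Galore 0.3.7 were used with build mm10. Positions may be off by 1 bp, since a start at 0 or 1, like threshold, control and read depth, is not given in the sources used here. No list could be scaled for depth, and the length of a list can raise or lower a share.

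Summits at most 200 bp apart were merged by single linkage. Genes were the 20665 protein-coding genes of GRCm38.p6 on chromosomes 1 to 19, whose ends were taken without transcript models. Strand and sequence came from RefSeq promoters, which 16457 of these genes had. Shares carry Clopper-Pearson 95% intervals, for counting error only. The paired comparison used the exact sign-flip permutation test over 6 libraries. Merging and testing were tested on simulated data. The simulated sites lay far apart with their summits close together, so joining of distant summits through germ-lineage ones was not simulated. Python 3.11.15, numpy 2.4.6, pandas 2.3.3 and scipy 1.17.1 were used.

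Named were the 10 tightest regions near a gene end with no germ-lineage summit and the 10 with all 6. Also named were 10 of the 31 genes tied for most regions, the first by chromosome and position. The 10 farthest regions, all list genes, and 5 regions on each side of the 200 bp limit were named too. The regions nearest to an outside photoreceptor summit were chosen after their values were seen. A few named genes are left out of the text. The regions and the 30 lists were chosen with earlier results of these data known. Alternatives were merging distance, region width, window, gene kind, a left-out library and, chosen after seeing the data, a germ-lineage summit within 100 bp of the centre.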

Additional observations from a re-analysis of the deposited data

Results flagged for a closer look

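The sex chromosomes were outside the selection, and 12 regions there had the same pattern of summits, in both intestinal and both plasmablast libraries and in neither photoreceptor library. All were on chromosome X. A gene end lay within 1 kb for Uxt (240 bp), Elf4 (903 bp), Prps1 (184 bp) and Amot (465 bp). The region near Cxcr3, the receptor for the chemokine Cxcl10, was 1308 bp from a gene end and had no germ-lineage summit, the only one of the 12 without. Those near Prps1, Huwe1 and Tlr8 had summits in all 6 germ-lineage libraries.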

How the results depend on the processing

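The number of selected regions was 777, fell to 393 when only regions up to 200 bp wide were kept, and ran from 872 to 1853 when 1 somatic library was left out, with 1853 without intestinal replicate 1. The share with a germ-lineage summit, 84.7%, was 77.6% for regions up to 200 bp wide and 76.7% for a summit within 100 bp of the centre, and ran from 71.4% (without day 6 PGCLC replicate 1) to 86.9% over the left-out libraries. The share near a gene end, 28.7%, was 24.8% and 33.5% with merging at 100 and 500 bp, 21.0%, 37.8% and 51.1% with windows of 500, 2000 and 5000 bp, and 35.1% with genes of all kinds, and ran from 28.1% to 43.8% (without intestinal replicate 1). The 262 genes became 120 for regions up to 200 bp wide and 538 with the 5000 bp window, and ran from 294 to 953 over the left-out libraries, with 953 without intestinal replicate 1 and 415 without replicate 2. The germ-lineage differences kept their direction under every alternative run. With germ-lineage summits counted only within 100 bp of the centre they were -29.7, 25.0 and 34.7 percentage points, and 25.0 was the lowest of the second. With 1 mean per germ-lineage cell type they were -32.1, 35.3 and 46.4 percentage points with an exact permutation p of 0.25, the smallest possible with 3. Over the left-out libraries they ran from -41.4 to -27.3, from 27.4 to 37.2 and from 29.3 to 48.5 points, where leaving out a germ-lineage library allows no p under 0.0625. In the other 12 settings each, p stayed at 0.031. No paired analysis was possible because replicate numbers of different cell types mark no shared source, beyond the pairing of region classes within each library that the test already has. Without read depth, a missing summit cannot be told from a shallow library.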

Other observations

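Some selected regions lay near the ends of more than 1 gene, so the gene concerned cannot be named from position alone. These were picked after their values were seen. One region in the histone cluster of chromosome 3, with summits in all 6 germ-lineage libraries, was 130 bp from H2ac20, 62 bp from H2bc21 and 656 bp from H2ac21. Dbf4, which activates the replication kinase CDC7, and Slc25a40, a mitochondrial carrier, shared a region without germ-lineage summits, 147 and 152 bp from their 5′ ends. Alyref, an mRNA export adaptor, and Anapc11, of the anaphase-promoting complex, shared another at 238 and 216 bp, with 1 germ-lineage library.

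Another selected region lay within 1 kb for 6 of the 777, within 5 kb for 20, within 10 kb for 34 and within 50 kb for 91.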
